A study of Mus musculus with 5 samples.

Results

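Hepatocytes of mice on a high fat diet were divided by whether Cyp4a14 was detected in them, and the 2 classes were compared within each mouse. Unique molecular identifiers (UMIs, tags that mark single captured mRNA molecules) were recovered from the deposited values, and each cell was thinned at random to 1532 UMIs so that all cells had the same chance of showing the gene. Cells below that total were left out. A cell with at least 1 Cyp4a14 UMI after thinning was called positive and a cell with 0 was called negative. Of 233 cells from HFD mouse 2 and HFD mouse 3, 175 reached the common total, and 53 of these were positive and 122 negative. HFD mouse 2 gave 47 positive and 108 negative cells and HFD mouse 3 gave 6 and 14, so most of what follows rests on HFD mouse 2.

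The series held 454 cells and 18018 genes from 5 Drop-seq libraries, one for each mouse. All mice were male C57BL/6J littermates that were 8 weeks old at the start and then ate either chow (labelled LFD, 2 mice) or a high fat diet (labelled HFD, 3 mice) for 12 weeks. No genetic change or drug is named for either group. HFD mouse 1 had 5 cells and was used only for side values.

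Cyp4a14 is a cytochrome P450 of the endoplasmic reticulum that adds a hydroxyl group to the far (omega) end of fatty acids, the first step of a side route to beta-oxidation. In mouse liver it is a classic target of PPAR alpha, the nuclear receptor that senses fatty acids, together with its neighbour Cyp4a10 and enzymes of peroxisomal and mitochondrial beta-oxidation. Hepatocytes also differ by position along the liver lobule. Cells near the central vein (pericentral) carry much of the P450 metabolism, and cells near the portal vein (periportal) carry much of the urea cycle and gluconeogenesis. In the mm10 build, Cyp4a14 is annotated on the minus strand of chromosome 4 from 115486200 to 115496142, and among the Cyp4a genes of the table it lies between Cyp4a12b and Cyp4a10 (plus strand, 115518264 to 115533649). Of 2550 distinct stretches of 50 bases in the annotated Cyp4a14 transcripts, 6 (0.235%) also occur in another gene, all of them in the pseudogene Cyp4a30-ps.

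The divided cells expressed hepatocyte genes. All 25 hepatocyte markers had UMIs in both classes of both mice, and 22 of them were found in over 50% of positive cells and 24 in over 50% of negative cells. Markers of macrophages, T or NK cells, B cells, neutrophils and cycling cells had 0 UMIs in every class. Sinusoidal endothelial, stellate, cholangiocyte and adipocyte lists had 0 to 4 UMIs per class. Erythroid markers had 2 and 1 UMIs in the positive and negative cells of HFD mouse 2 and 3 and 11 in those of HFD mouse 3. No cell barcode was shared between mice.

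Positive cells made up nearly the same share of both HFD mice. In HFD mouse 2 the share was 30.3% (exact 95% binomial interval 23.2 to 38.2%, 155 cells) and in HFD mouse 3 it was 30% (11.9 to 54.3%, 20 cells). Thinned to the same total, 5.83% of cells were positive in LFD mouse 1 (2.38 to 11.6%, 7 of 120 cells) and 2.67% in LFD mouse 2 (0.325 to 9.30%, 2 of 75 cells), and 2 of 5 cells were positive in HFD mouse 1. At full depth Cyp4a14 stood at 303 UMIs per 1000000 UMIs (counts per 1000000, CPM) in HFD mouse 2, 325 in HFD mouse 3 and 215 in HFD mouse 1, against 38.0 and 9.71 in LFD mice 1 and 2. These intervals cover counting error only. No diet comparison was tested on these shares, and the table holds no cell type that should lack the gene, so the share that free RNA in the droplets gives could not be read from it.

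**Figure D1:**
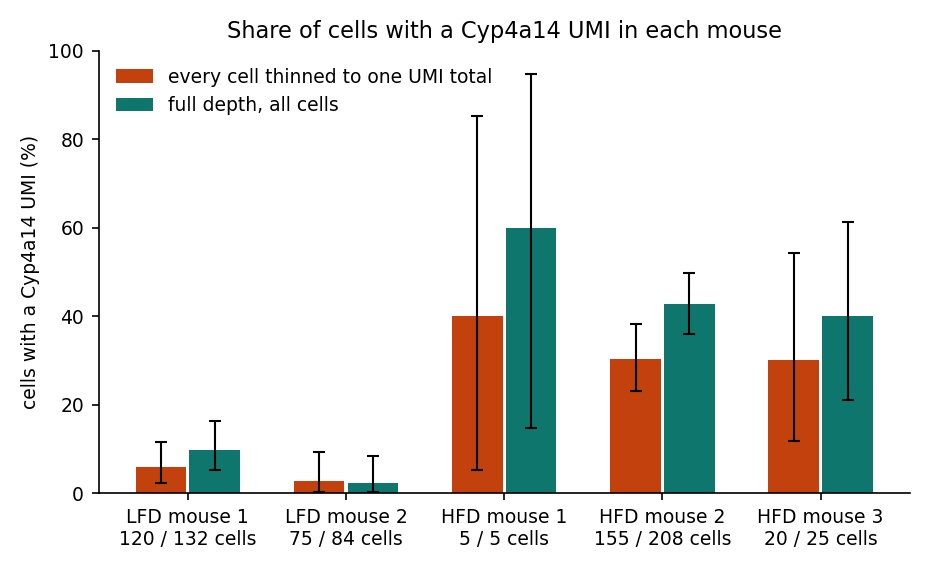
Percent of cells with a Cyp4a14 UMI in each of 5 mice, with every cell thinned to 1532 UMIs (orange) and at full depth (green); lines are exact 95% binomial intervals and the numbers under each mouse are cells at the common total over all cells. The thinned share is 30.3% in HFD mouse 2 and 30% in HFD mouse 3 and at most 5.83% in the LFD mice.

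The call turned on very few molecules. In HFD mouse 2, 39 of the 47 positive cells held 1 Cyp4a14 UMI and 8 held 2 or more, with a highest value of 4. Of the positive cells of HFD mouse 3, 4 held 1 UMI and 2 held 2. The variance of the thinned count over its mean was 1.20 in HFD mouse 2 and 1.16 in HFD mouse 3, where a gene with the same level in every cell would give a value near 1. Over 5 random draws of the thinning, 18 of the 155 cells of HFD mouse 2 were positive in every draw, 74 in at least 1 draw and 81 in none. Of the 20 cells of HFD mouse 3, 1 was positive in every draw, 9 in at least 1 and 11 in none. A cell just inside the threshold therefore differed from a cell just outside it by 1 molecule, and most cells that were ever positive changed class between draws.

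The UMIs that thinning set aside gave a second reading of Cyp4a14 in the same cells, since they took no part in the call. In HFD mouse 2 the positive cells held 52 Cyp4a14 UMIs in this held-out part, or 485 CPM of held-out UMIs (exact 95% Poisson interval 362 to 636), and the negative cells held 69, or 282 CPM (220 to 357). The ratio of positive to negative was 1.72 (1.18 to 2.50). Its value over the 5 draws ran from 1.34 to 2.45, and in 2 of them its interval included 1. These intervals count each UMI as independent and leave out the spread between cells, so they are too narrow. In the main draw the 52 UMIs lay in 22 of 47 positive cells, with up to 8 in 1 cell. The 69 UMIs lay in 29 of 108 negative cells, with up to 12 in 1 cell. In HFD mouse 3 the positive cells held 4 UMIs (385 CPM), all in 1 cell, and the negative cells 6 (516 CPM). The ratio there was 0.746 (0.155 to 3.14) and ran from 0.733 to 2.35 over the draws. Cells called negative thus still held Cyp4a14 UMIs in both mice. Within HFD mouse 2 the held-out level was 282 CPM in cells with 0 thinned UMIs, 405 in cells with 1 and 1044 (571 to 1752) in the 8 cells with 2 or more.

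**Figure D2:**
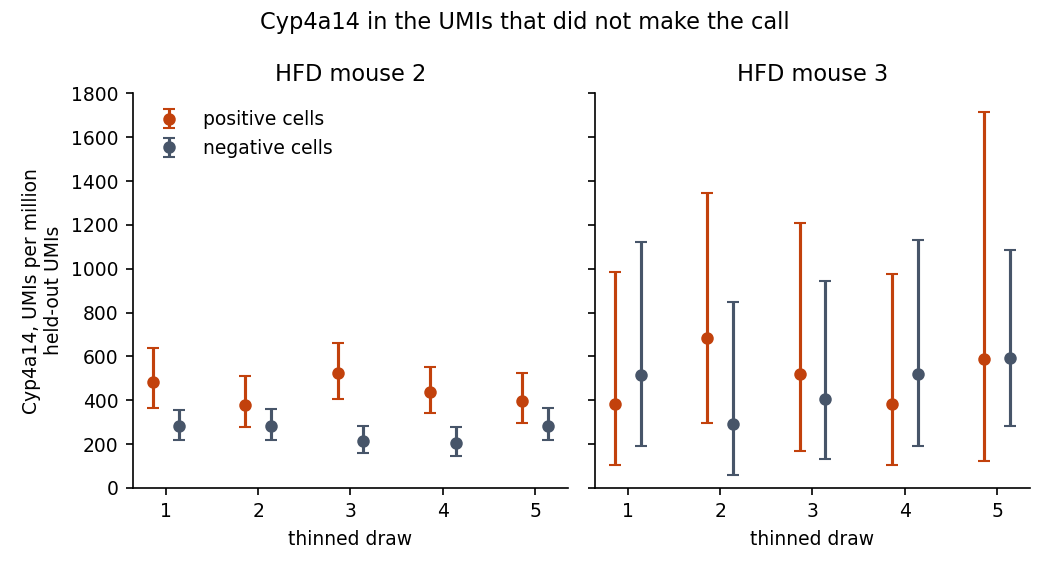
Cyp4a14 UMIs per 1000000 held-out UMIs in positive (orange) and negative (grey) cells of HFD mouse 2 (left) and HFD mouse 3 (right) for 5 random draws of the thinning; points are sums over cells and lines are exact 95% Poisson intervals. In HFD mouse 2 the positive cells lie above the negative cells in each draw, by a ratio of 1.34 to 2.45, and in HFD mouse 3 the intervals overlap widely.

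Positive cells had also been sequenced more deeply before thinning. Their median was 3207 UMIs against 2444.5 for negative cells in HFD mouse 2, and 2990.5 against 1957.5 in HFD mouse 3. After thinning, the positive and negative cells held a median of 673 and 648.5 genes in HFD mouse 2 and of 639 and 652.5 in HFD mouse 3. Mitochondrially encoded mRNA took 1.49% of thinned UMIs in positive and 1.71% in negative cells of HFD mouse 2, and 2.80% and 2.39% in HFD mouse 3. Heat shock genes together with immediate early ones took 0.181% and 0.178% in HFD mouse 2 and 0.228% and 0.200% in HFD mouse 3. The part of these differences in the gene comparisons below was not tested, except where values within shallower and deeper cells are given.

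For the comparison of all other genes, thinned UMIs were summed per mouse and class and fitted with limma voom, mouse being the block, and p values were adjusted by the Benjamini-Hochberg method over the 1034 genes with enough UMIs. The sums held 72004 and 165456 UMIs in HFD mouse 2 and 9192 and 21448 in HFD mouse 3, so 3 UMIs, the limit that a count of 0 allows, equal 41.7, 18.1, 326 and 140 CPM. At an adjusted p under 0.05, 0 of 1034 genes (0%) differed in either direction in limma voom, where 40 genes (3.87%) had an unadjusted p under 0.05 and the smallest adjusted p was 0.918. Limma-trend called 3 genes, Cox6b1, Mup17 and Serpina1e. Positive cells had the higher CPM in both mice for 227 genes (22%) and the lower CPM in both for 269 (26%). The median fitted log2 fold change was 0.05 in voom, which gives the larger sums of HFD mouse 2 more weight, and -0.07 in limma-trend. Within HFD mice 2 and 3 the median log2 ratios were 0.01 and -0.14. Small values below are to be read against these medians. With 2 mice, and 6 positive cells in one of them, only large differences could be seen. Thinning to the 10th percentile, which kept more cells at 1231 UMIs each, gave 52 calls, 49 of them for genes with 0 or 1 UMI in a class of HFD mouse 3.

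The Cyp4a genes come first, since they share a locus and regulators with Cyp4a14. Cyp4a10, which also omega-hydroxylates fatty acids, had 222 CPM in positive and 96.7 CPM in negative cells of HFD mouse 2 (16 UMIs in each class), and 109 against 140 CPM in HFD mouse 3 (1 and 3 UMIs). With so few UMIs HFD mouse 3 gave no direction. The fitted log2 fold change over both mice was 1.08 (SE 0.43, unadjusted p = 0.035, limma voom adjusted p = 0.918). A Cyp4a10 UMI was held by 21.3% of positive cells (10.7 to 35.7%) and 12.0% of negative cells (6.57 to 19.7%) of HFD mouse 2, and by 16.7% (1 of 6 cells) and 14.3% (2 of 14 cells) of HFD mouse 3. At full depth, without thinning, its fitted value was 1.36 (limma voom adjusted p = 0.231). It was 1 of the 52 calls at the 10th percentile, at 1.97 (limma voom adjusted p = 6.8e-07), where HFD mouse 2 had 128 against 136 CPM (6 and 25 UMIs) and HFD mouse 3 had 203 against 45.1 CPM from 1 UMI in each class. Cyp4a12a, a male-biased arachidonic acid hydroxylase, had 4 and 6 UMIs in the classes of HFD mouse 2 and 0 in HFD mouse 3, Cyp4a12b had 1 UMI in all, and Cyp4a31 and Cyp4a32 had 0. Cyp4v3, a more distant relative, was the other tested member of the family list, with 306 against 236 CPM in HFD mouse 2 and 326 against 140 CPM in HFD mouse 3. Its fitted value was above 0 in 1 of 5 draws and -0.05 at full depth.

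Genes of fatty acid use, many of them known targets of PPAR alpha, were looked at next. No member of these lists passed the test at this depth. Of 24 listed genes of peroxisomal beta-oxidation, 12 were tested. Their median fitted log2 fold change was 0.17 against 0.05 over all genes tested, 10 had the higher CPM in positive cells of HFD mouse 2 (534 of 1034 genes, 51.6%, did) and 5 in HFD mouse 3 (452 of 1034, 43.7%). Acaa1b, a peroxisomal thiolase, had 2958 against 1759 CPM in positive and negative cells of HFD mouse 2 and 1849 against 3497 CPM in HFD mouse 3, and the order turned over between the mice. Catalase (Cat), which breaks down the peroxide that the pathway makes, had 2167 against 2055 CPM in HFD mouse 2 and 1197 against 1539 CPM in HFD mouse 3.

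Of 18 genes of mitochondrial beta-oxidation, 12 were tested, with a median log2 fold change of 0.10. The mice differed, with median log2 ratios of 0.14 in HFD mouse 2 and -0.54 in HFD mouse 3 (0.01 and -0.14 over all genes tested). Of the 12 genes, 9 and 4 had the higher CPM in positive cells (51.6% and 43.7% of all genes tested did). Etfb, a subunit of the flavoprotein that takes the electrons of the pathway, had 958 against 931 CPM in HFD mouse 2 and 1958 against 886 CPM in HFD mouse 3. Acaa2, the last enzyme of the cycle, had 1278 against 1088 CPM and 762 against 1166 CPM. The 4 genes of ketone body synthesis had a median of -0.05 (above 0 in 12 of the 19 settings run). Uptake, binding and activation of fatty acids (9 of 18 tested) had a median of 0.05. The abundant binding protein Fabp1 had 54816 against 53640 CPM in HFD mouse 2 and 42428 against 36787 CPM in HFD mouse 3, which is close to level in both. PPAR alpha itself, its partners and its secreted or kinase targets (6 of 17 tested) had a median of -0.11, which lay above 0 in 10 of the 19, from -0.35 to 0.33. Within HFD mice 2 and 3 the median log2 ratios were -0.01 and -0.32 for this list. They were -0.26 and 0.19 for ketone body synthesis and 0.03 and -0.33 for uptake, binding and activation. Ehhadh, Pdk4, Fgf21, Angptl4, Vnn1 and Acot1, all known targets of the receptor, had too few UMIs to be tested.

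Lipid storage and synthesis held no gene past the adjusted threshold at the common total of 1532 UMIs either. The lipid droplet and lipolysis list (6 of 20 tested) had a median log2 fold change of 0.26 and held 1 of the genes of smallest p, Mgll, the lipase that splits monoacylglycerols. Mgll had 361 CPM (236 to 529) in positive and 145 CPM (92.9 to 216) in negative cells of HFD mouse 2 and 435 against 233 CPM in HFD mouse 3, with 26, 24, 4 and 5 UMIs. Its fitted log2 fold change was 1.25 (SE 0.36, unadjusted p = 0.009, limma voom adjusted p = 0.918) and lay between -0.04 and 1.25 over the 5 draws. Lipogenesis (14 of 25 tested) had a median of 0.17 (below 0 in 7 of the 19 settings). In positive cells of both mice 1 of the 14 was higher and 5 were lower (22% and 26% of all genes tested were). One of the lower genes was Scd1, the desaturase that makes monounsaturated fatty acids. It had 1000 CPM (782 to 1259) in positive and 1529 CPM (1346 to 1730) in negative cells of HFD mouse 2 and 979 against 1818 CPM in HFD mouse 3. The fitted value was -0.66 (SE 0.22, unadjusted p = 0.017, limma voom adjusted p = 0.918) and stayed between -0.81 and -0.49 over the draws. In LFD mice 1 and 2 the few positive cells lay on the other side, at 2704 against 2149 CPM and 2937 against 1797 CPM. Elovl2, which lengthens polyunsaturated fatty acids, had 333 against 484 CPM and 218 against 279.7 CPM in HFD mice 2 and 3. Cholesterol synthesis (5 of 23 tested) had a median of -0.04 and lipoprotein genes (15 of 18 tested) one of -0.05. Within HFD mice 2 and 3 the median log2 ratios were 0.23 and -0.28 for lipid droplet and lipolysis genes and 0.02 and -0.34 for lipogenesis. They were 0.03 and -0.69 for cholesterol synthesis and -0.14 and -0.08 for lipoprotein genes (0.01 and -0.14 over all genes tested).

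By their zone genes, the positive cells of HFD mouse 2 scored more pericentral than its negative cells, and those of HFD mouse 3 more periportal. A zone score was computed for each cell as the log2 of pericentral UMIs plus 1 over periportal UMIs plus 1, from 34 pericentral and 32 periportal genes. In HFD mouse 2 positive cells scored -0.532 (SD over cells 1.74, 47 cells) and negative cells -1.306 (SD 1.58, 108 cells), a difference of 0.774 toward the central vein. In HFD mouse 3 positive cells scored -2.277 (SD 0.878, 6 cells) and negative cells -1.242 (SD 1.36, 14 cells), a difference of -1.035. The mean of the 2 mice was -0.131, with a two-sided exact permutation p of 1 over sign flips, where 2 mice cannot go below 0.5. In the mice left out of the comparison the difference was 1.486 in LFD mouse 1 (7 positive cells), 1.343 in LFD mouse 2 (2 positive cells) and 0.137 in HFD mouse 1 (2 positive and 3 negative cells). The cells of the 2 classes overlapped over almost the whole range of the score in HFD mouse 2, from -3.644 to 3.636 in positive and from -4.644 to 3.632 in negative cells.

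By the number of Cyp4a14 UMIs, the mean score of HFD mouse 2 was -1.306 in cells with 0 UMIs, -0.626 in the 39 cells with 1 and -0.0742 (SD 2.22) in the 8 cells with 2 or more. Those 8 cells ran from -3.298 to 3.636, and without the 1 cell with 4 UMIs their mean was -0.604, close to that of cells with 1 UMI. The means of HFD mouse 3 were -1.242, -2.360 (4 cells) and -2.110 (2 cells). With the cells of HFD mouse 2 ranked by the score and cut into 3 parts of like size, 12 of 52 were positive in the periportal part, 15 of 52 in the middle and 20 of 51 in the pericentral part. Cyp4a14 at full depth stood at 145 CPM (92.8 to 215), 276 CPM (205 to 364) and 437 CPM (358 to 529) in these parts. The pericentral part was also the deepest, with a median of 3772 UMIs against 2415 and 2361. The difference in score was 0.717 among the cells of this mouse below 2697 UMIs and 0.656 among those at or above, so it was present at both depths. The 3 parts of HFD mouse 3 held 3 of 7, 3 of 7 and 0 of 6 positive cells, at 459, 453 and 65.1 CPM. In LFD mouse 1 the full-depth level rested on 17 UMIs, of which 14 fell in the pericentral part (124 CPM) and 1 and 2 in the others (6.16 and 12.9 CPM). LFD mouse 2 held 3 UMIs in all, 0 in the periportal, 2 in the middle (18.7 CPM) and 1 in the pericentral part (12.1 CPM), too few to place the gene along the lobule.

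**Figure D3:**
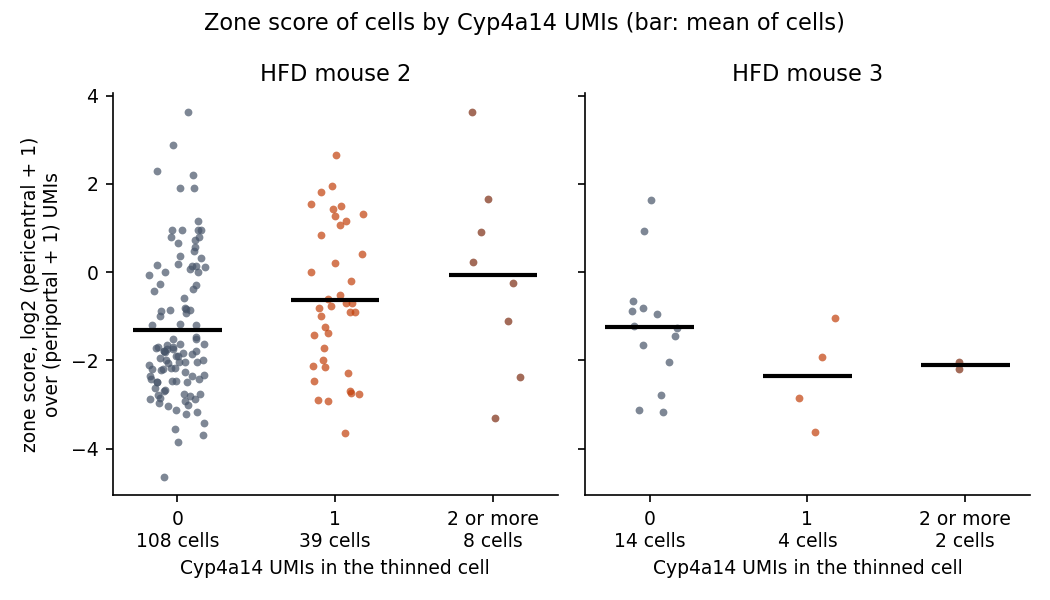
Zone score of each cell (log2 of pericentral plus 1 over periportal plus 1 UMIs, higher toward the central vein) by its number of Cyp4a14 UMIs after thinning, in HFD mouse 2 (left) and HFD mouse 3 (right); each point is a cell and bars are means of cells. Means go from -1.306 to -0.626 and -0.0742 in HFD mouse 2, where the 8 cells with 2 or more UMIs spread from -3.298 to 3.636, and from -1.242 to -2.360 and -2.110 in HFD mouse 3.

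Most pericentral genes showed the same turn, which is not a second result, since these genes make up the score. Of 16 pericentral genes tested, 14 had the higher CPM in positive cells of HFD mouse 2 and 3 in HFD mouse 3 (51.6% and 43.7% of all genes tested did). Their median log2 ratios were 0.82 and -0.46 (0.01 and -0.14 over all genes tested). In the fit over both mice 14 of the 16 lay above 0, as did 582 of 1034 genes (56.3%). Summed over the list, HFD mouse 2 had 12569 CPM in positive and 8461 CPM in negative cells, and HFD mouse 3 had 5440 and 8812 CPM. Cyp2e1, the ethanol-oxidising P450, had 1958 against 1106 CPM in HFD mouse 2 and 762 against 1119 CPM in HFD mouse 3. Rgn, an enzyme of ascorbate synthesis and calcium handling, had 1000 against 544 CPM and 544 against 653 CPM. Oat, an ornithine aminotransferase of the innermost pericentral cells, had 375 against 193 CPM and 0 against 233 CPM, where 0 UMIs allow up to 326 CPM. The 2 pericentral genes that did not lie above in HFD mouse 2 were Gstm1 (667 against 858 CPM) and Cpox (139 against 181 CPM). The most abundant tested member, Akr1c6, had 1972 against 1723 CPM and 1088 against 1725 CPM.

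Periportal genes, the other side of the score, turned over in part. Of 25 tested, 8 had the higher CPM in positive cells of HFD mouse 2 and 21 in HFD mouse 3 (51.6% and 43.7% of all genes tested did). Their median log2 ratios were -0.20 and 0.42. In both mice 8 were higher and 3 lower (22% and 26% of all genes tested were). Those higher in both included Cps1, the first enzyme of the urea cycle, with 1111 against 1070 CPM in HFD mouse 2 and 2176 against 1212 CPM in HFD mouse 3, and G6pc, the last enzyme of glucose release, with 306 against 254 CPM and 653 against 373 CPM. Others went opposite ways. Sds, which breaks down serine, had 208 against 230 CPM in HFD mouse 2 and 1632 against 513 CPM in HFD mouse 3. Uroc1, an enzyme of histidine breakdown, had 181 against 236 CPM and 544 against 93.2 CPM. In HFD mouse 3 its levels rested on 5 UMIs in positive cells, 4 of them in 1 cell, and 2 in negative cells. Fbp1, a gluconeogenic phosphatase, had 1833 against 2158 CPM and 1958 against 1772 CPM, and Pigr, the receptor that carries immunoglobulin A into bile, had 1611 against 1813 CPM and 3481 against 3124 CPM. The fitted medians over both mice were 0.61 for pericentral and -0.01 for periportal genes in voom, which gives the larger sums of HFD mouse 2 more weight, and -0.11 and 0.12 in limma-trend.

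Among the 12 genes of smallest p that lay above in positive cells of both mice, Cyp2c29, a pericentral P450 that oxidises arachidonic acid, was one of the better measured. It had 749.96 CPM (563 to 979) in positive and 351 CPM (266 to 453) in negative cells of HFD mouse 2 and 653 against 466 CPM in HFD mouse 3. Its fitted log2 fold change was 0.96 (SE 0.28, unadjusted p = 0.009, limma voom adjusted p = 0.918) and lay above 0 in 5 of 5 draws, from 0.20 to 0.96. It was above in positive cells of both LFD mice too, at 2331 against 1057 CPM and 3264 against 1305 CPM. That side rests on 25 and 10 UMIs in 7 and 2 positive cells. Those cells also scored more pericentral than the negative cells, by 1.486 and 1.343, and the part of position was not tested. Mup17, a pheromone carrier secreted into urine through the blood, had 1805 against 1009 CPM in HFD mouse 2 but only 2 and 0 UMIs in HFD mouse 3. In HFD mouse 2 most of its UMIs lay in the pericentral part, at 3786 against 2800 CPM. It had 479 against 406 CPM in the middle part and 163 against 180 CPM in the periportal part. The highest count in a cell was 24 among positive and 18 among negative cells. Its fitted value was 0.93 (SE 0.29), and reads of the near-identical Mup genes may be divided between them. Rpl35a, a ribosomal protein gene, had the smallest p of this direction, with 208 CPM (117 to 344) against 66.5 CPM (33.2 to 119) in HFD mouse 2 and 326 against 93.2 CPM in HFD mouse 3. It rested on 15, 11, 3 and 2 UMIs, and its fitted value of 1.64 (SE 0.43, unadjusted p = 0.005, limma voom adjusted p = 0.918) dropped to 0.65 at full depth.

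The other 8 genes of this direction had fitted values between 0.65 and 1.20. They were Ddah1, which degrades the nitric oxide synthase inhibitor dimethylarginine, Dad1, a subunit of the oligosaccharyltransferase, Agpat2, an acyltransferase of triglyceride and phospholipid synthesis, and Sardh, the sarcosine dehydrogenase. Pgrmc1, a haem-binding partner of P450 enzymes, Lipc, the hepatic lipase, Gchfr, which regulates the synthesis of tetrahydrobiopterin, and the acetyltransferase-like gene Cml1 made up the rest. Ddah1 had 181 against 78.6 CPM in HFD mouse 2 and 218 against 93.2 CPM in HFD mouse 3, and Sardh had 542 against 308 CPM and 653 against 466 CPM. Agpat2 had 278 against 133 CPM and 326 against 233 CPM, and it was 1 of the 52 calls at the 10th percentile, at 1.96 (limma voom adjusted p = 0.00022), with 2 UMIs in each class of HFD mouse 3. Lipc, which clears lipoprotein lipid, had 194 against 90.7 CPM and 109 against 93.2 CPM. In HFD mouse 3 these levels rested on few UMIs in positive and negative cells. They were 2 and 2 for Ddah1 (the positive ones in 1 cell), 1 and 2 for Lipc, 3 and 5 for Agpat2, and 6 and 10 for Sardh. For Ddah1 and Lipc that is too few to give a direction in that mouse. Ddah1 stayed above 0 in each of the 4 draws that tested it, and Dad1, Agpat2, Sardh and Lipc in 5 of 5, but Dad1 was at -0.02 at full depth. Counts over draws, here and for the other genes named, are not independent tests. All draws thin the same cells, and the genes of smallest p were chosen from the main draw, which is 1 of the 5.

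Serpina1e, one of the mouse alpha-1-antitrypsin genes and higher in male than in female liver, was the gene of smallest p in the whole comparison. In HFD mouse 2 it stood at 1472 CPM (1205 to 1781) in positive and 3300 CPM (3029 to 3589) in negative cells, from 106 and 546 UMIs. A Serpina1e UMI was found in 36 of 47 positive and 96 of 108 negative cells, and no cell held more than 16, so the difference did not come from 1 cell. In HFD mouse 3 positive cells held 0 UMIs, which allows up to 326 CPM, and negative cells held 6 (279.7 CPM), so that mouse could not show a difference at this depth. The fitted log2 fold change was -1.21 (SE 0.24, unadjusted p = 0.001, limma voom adjusted p = 0.918). It lay between -1.21 and -0.80 in 5 of 5 draws and was -0.93 at full depth, where its limma voom adjusted p was 0.042. The LFD mice lay on the same side, at 3264 against 6308 CPM and 4243 against 6232 CPM. Their positive classes were 7 and 2 cells with 35 and 13 UMIs, and these cells also scored more pericentral than the negative cells. Reads of the closely related Serpina1 genes may be divided between them, and the authors' counting of such reads is not stated in these sources.

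Serpina1e itself varied along the lobule of HFD mouse 2, and the lower level of positive cells was seen in each part of it. In the periportal part it had 1904 CPM (1326 to 2648) in positive and 4471 CPM (3957 to 5033) in negative cells, in the middle part 1741 CPM (1244 to 2370) and 3634 CPM (3155 to 4166), and in the pericentral part 1012 CPM (687 to 1436) and 1390 CPM (1075 to 1768). The intervals, which cover counting error of summed UMIs and not the spread between cells, were apart in the periportal and middle parts and overlapped in the pericentral part. Serpina1e was chosen from this same comparison, so the parts, cut from the same cells of 1 mouse, are not a second test of it. Among the shallower cells of this mouse it had 1559 against 3551 CPM and among the deeper cells 1418 against 2997 CPM. Cyp4a10 showed another pattern: in the pericentral part it had 489.6 CPM (274 to 807) in positive and 232 CPM (116 to 414) in negative cells, and in the other parts the 2 classes together held 6 UMIs. Mgll also had most of its UMIs in the pericentral part, at 555 CPM (323 to 888) in positive and 400.1 CPM (241 to 625) in negative cells. It had 261 against 70.6 CPM in the middle part (6 and 4 UMIs) and 163 against 16.3 CPM in the periportal part (3 and 1 UMIs), so positive cells lay above in each part, with overlapping intervals.

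A further 9 genes that lay below in positive cells of both mice, beside Serpina1e and Scd1, had fitted values between -1.95 and -0.93 and few UMIs. The positive cells of HFD mouse 3 held 0 UMIs of Hsd17b12, Dnajb11, Iigp1, Rab2a, Hmgn1, C1rl and Ppa1, and 1 UMI of Glrx5 and Adtrp. The 326 CPM that 0 UMIs allow there lies above every level of these genes in the negative cells of that mouse, so their fitted values depend on HFD mouse 2 and on how the fit treats 0. Hsd17b12, a reductase of fatty acid elongation, had 111 against 272 CPM in HFD mouse 2, Glrx5, which works in iron-sulphur cluster assembly, had 125 against 278 CPM, and Iigp1, an interferon-induced GTPase, had 222 against 405 CPM. Adtrp, a hydrolase of fatty acid esters of hydroxy fatty acids, had 41.7 against 175 CPM, and Dnajb11, a chaperone of the endoplasmic reticulum, had 41.7 against 139 CPM. Hsd17b12, Glrx5 and Iigp1 stayed below 0 in 5 of 5 draws. The vesicle GTPase Rab2a, the nucleosome-binding Hmgn1, the complement protease C1rl, the pyrophosphatase Ppa1, Adtrp and Dnajb11 each lay above 0 in at least 1 draw.

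**Figure D4:**
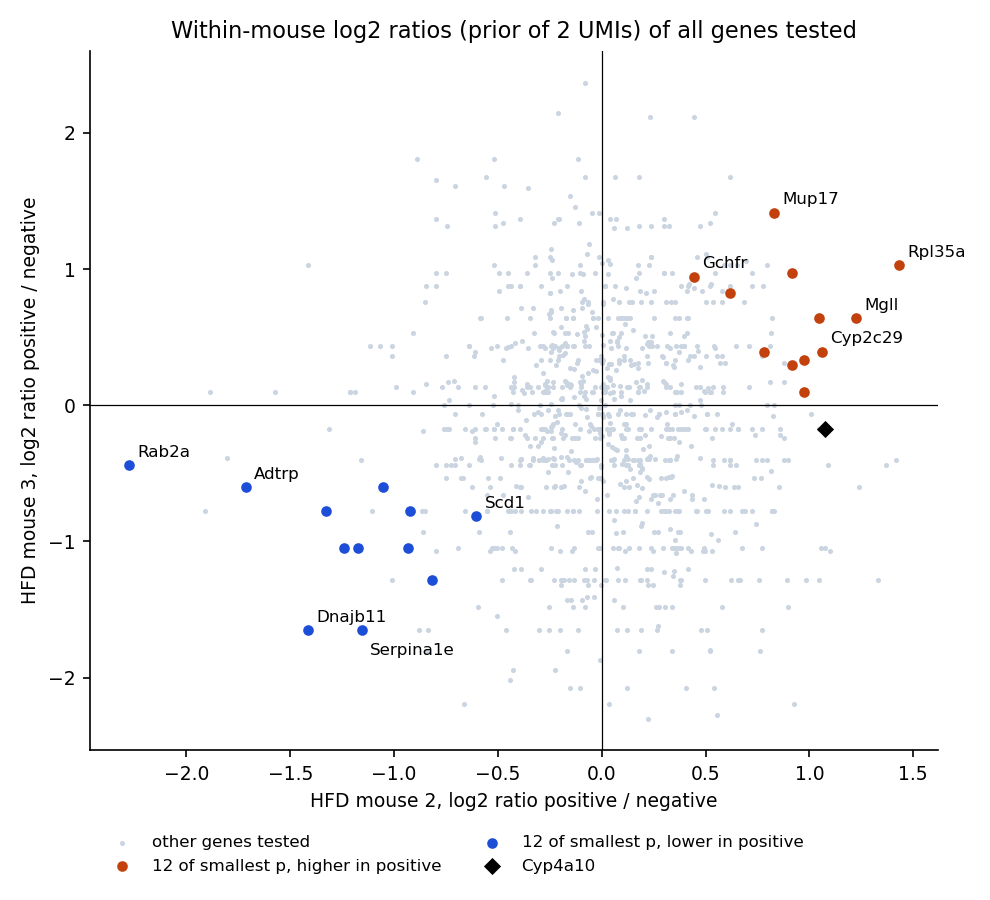
Log2 ratio of positive over negative cells in HFD mouse 2 (horizontal) and HFD mouse 3 (vertical) for the 1034 genes tested, with a prior of 2 UMIs; orange and blue points are the 12 lowest-p genes of each direction that have the same sign in both mice, and the diamond is Cyp4a10. The coloured genes were chosen from this comparison and none passed the adjusted test. Cyp4a10 lies above 0 in HFD mouse 2, and its place below 0 in HFD mouse 3 rests on 1 and 3 UMIs, too few to give a direction.

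Of 28 gene lists, 26 had tested members and none held a gene past the adjusted threshold in voom at the common total of 1532 UMIs. Drug metabolism (27 of 55 tested) had a median log2 fold change of 0.08. Of the 27, 17 lay above in HFD mouse 2 and 9 in HFD mouse 3 (51.6% and 43.7% of all genes tested did). Gsta3, a glutathione transferase, had 1972 against 1396 CPM in HFD mouse 2 and 762 against 699 CPM in HFD mouse 3. Genes higher in male liver (10 of 23 tested) had a median of 0.23, which ran from -0.50 to 0.34 over the 19 settings and lay below 0 in 4 of them. Among these genes Cyp2d9 had 903 against 683 CPM and 435 against 746 CPM. The urinary proteins (10 of 22 tested) had a median of 0.18, which ran from -0.24 to 0.28 and lay below 0 in 6 of the 19. Their summed level was 65621 against 73941 CPM in HFD mouse 2 and 26219 against 20701 CPM in HFD mouse 3. Mup20, the male pheromone darcin, had 16444 against 22483 CPM in HFD mouse 2 and 9247 against 6854 CPM in HFD mouse 3. It was called lower in positive cells at full depth, as was Serpina1e.

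In the voom fit over both mice, lists of common hepatocyte work lay near the middle of all genes. Acute phase proteins (14 of 22 tested) had a median of 0.06, urea cycle and amino acid breakdown (35 of 39) one of 0.02, and glucose metabolism (13 of 22) one of -0.01. Within HFD mice 2 and 3 the median log2 ratios of acute phase genes were -0.06 and 0.28 (0.01 and -0.14 over all genes tested). Of these 14 genes, 5 and 11 had the higher CPM in positive cells (51.6% and 43.7% of all genes tested did). The other 2 lists had medians of -0.09 and 0 (urea and amino acid) and -0.17 and 0 (glucose). The fibrinogen chain Fgb had 5069 against 6805 CPM in HFD mouse 2 and 6201 against 5362 CPM in HFD mouse 3. The methionine cycle enzyme Mat1a had 2069 against 2520 CPM and 2720 against 2285 CPM. Mitochondrially encoded mRNA (6 of 13 tested) lay below in 6 of 6 members in HFD mouse 2 and above in 6 of 6 in HFD mouse 3. Its median log2 ratios were -0.24 and 0.32, so it turned over with the mouse in the opposite direction to most pericentral genes. Genes higher in female liver and clock genes had no member with enough UMIs.

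**Figure D5:**
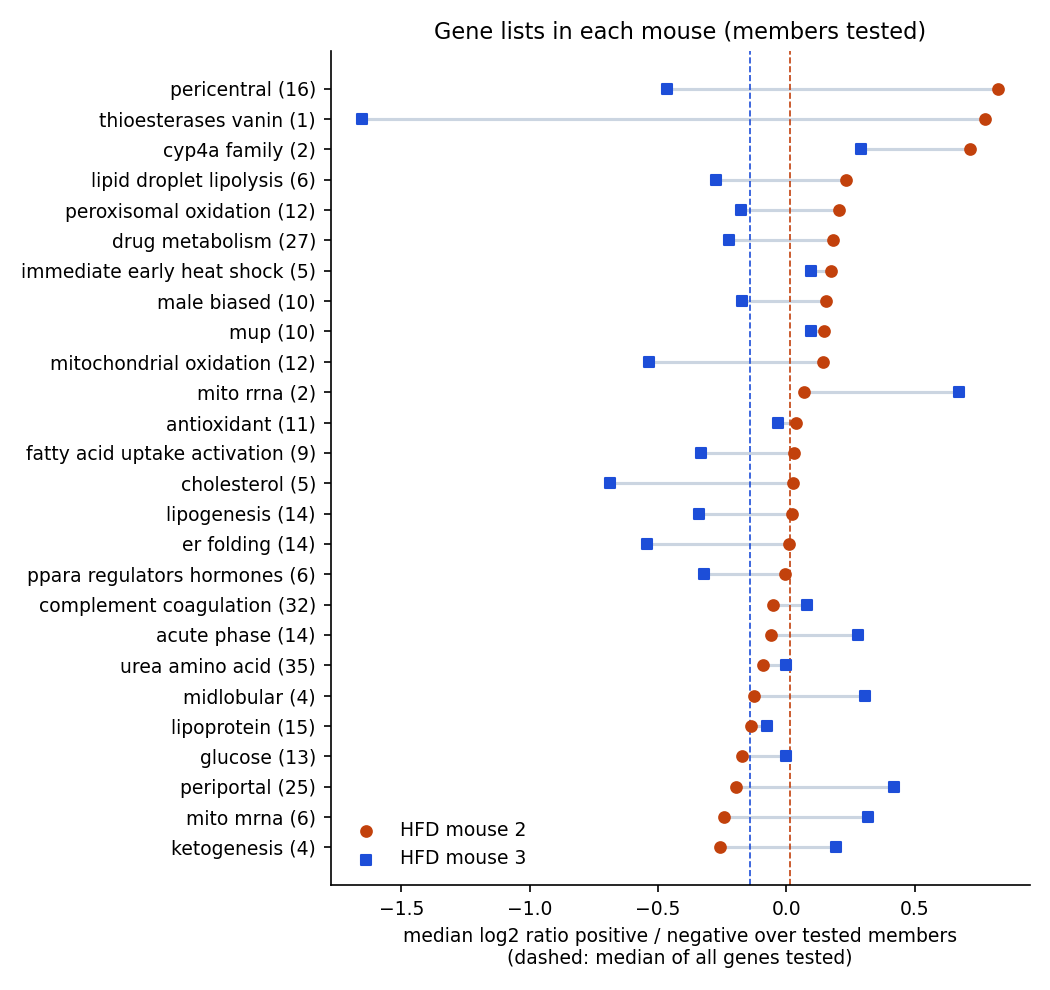
Median log2 ratio of positive over negative cells over the tested members of 26 gene lists in HFD mouse 2 (orange circles) and HFD mouse 3 (blue squares), with the number of tested members in brackets; dashed lines are the medians over all 1034 genes tested. Pericentral genes are at 0.82 in HFD mouse 2 and -0.46 in HFD mouse 3, and periportal genes at -0.20 and 0.42.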

How the data were processed

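Hepatocytes of 5 mice were profiled by Drop-seq, per the labels' protocols, and STAR 2.6.0a and mm10 are named in the submitters' processing notes. Not given in the sources used here are the cell filter, the annotation and the treatment of strand, doublets and reads shared between genes. The authors deposited natural log values, which the values show to be ln of 1 plus UMIs per 10000 UMIs of the cell. Each back-transformed value was divided by the smallest one of its cell, and 100% of the quotients were whole (tolerance 0.001), which gave UMIs. A smoothed table was not used. All columns were mapped to mice by their prefix (0 left out). No doublet caller was run.

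Cells of HFD mice 2 and 3 were thinned without replacement to the 25th percentile of their UMI totals (1532). Genes other than Cyp4a14 with 30 thinned UMIs in total and 1 in each mouse were fitted with limma voom (limma 3.58.1, R 4.3.3) on 4 sums with mouse as a block, since positive and negative cells come from the same animal. The recovered UMIs were tested with voom, and no count model was run. Fold changes are log2 of positive over negative. Ratios within a mouse carry a prior of 2 UMIs. Intervals are exact 95% binomial (Clopper-Pearson) or Poisson intervals (SciPy 1.17.1). The fit was tested on simulated data. Cells are not replicates. The p values set the class difference against its spread between 2 mice, moderated by a variance drawn from all genes tested. That shared variance gives most of the 8.17 degrees of freedom of the main fit.

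The text names all Cyp4a genes, the 12 lowest-p genes of each direction with the same sign in both mice (predicted models passed over: 1; a few genes that the rule names are not reported here), and from the lists the tested members with most UMIs. Other genes named from the lists (among them the pericentral and periportal examples and the untested PPAR alpha targets) were chosen after their values were seen. The members and lists were chosen with earlier results of these data known. Alternatives covered the thinning total and draw, the call at 2 UMIs, gene filters, scaling, limma-trend, the block, the mice and the cells.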

Additional observations from a re-analysis of the deposited data

Results flagged for a closer look

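Differences between the diets were flagged for 2 of the named genes, Cml1 and Scd1, because the positive cells of both HFD mice lay on one side of the negative cells and those of both LFD mice on the other. The difference between the diets was not tested, and the LFD side rests on 7 positive cells of LFD mouse 1 and 2 of LFD mouse 2. The fitted log2 fold change in the HFD mice was 0.85 for Cml1 and -0.66 for Scd1. In LFD mouse 1, positive against negative cells held 466 against 491 CPM of Cml1, and in LFD mouse 2 they held 326 against 590.2 CPM, the former from 1 UMI. For Scd1 the positive cells were above, at 2704 against 2149 CPM in LFD mouse 1 and 2937 (9 UMIs) against 1797 CPM in LFD mouse 2.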

How the results depend on the processing

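The count of 0 genes past the adjusted threshold became 52 with the common total at the 10th percentile, 2 with no thinning (Mup20 and Serpina1e, both lower in positive cells), 4 in the fourth thinned draw (Mup11, Mup17, Mup20 and Serpina1e), 1 with positive cells at 2 or more UMIs (Mup17), 3 with a filter of 100 UMIs (Mup11, Mup17 and Serpina1e), 3 with limma-trend and 1 without the 5% of cells with most UMIs (Serpina1e). It was 0 in the 11 other alternatives. In 6 of the 7 settings with calls (not with no thinning), and in 2 with 0 calls, the fit pooled the variance of all genes into 1 trend. The main setting had 8.17 prior plus residual degrees of freedom per gene, most of them from the variance shared over genes. Without the replicate block (mouse) it was 0, with 18 genes at an unadjusted p under 0.05 against 40 with it. The count could not be given without 1 of the mice, since no degrees of freedom were left. The unadjusted count ran from 16 to 222, the latter with no thinning and 2473 genes tested. The share of positive cells in HFD mouse 2 was 20.3% with the total at the 10th percentile, 43.0% at the median and 42.8% with no thinning, and in HFD mouse 3 it was 70.0% at the median. The mean zone score difference of the 2 mice changed sign from -0.131 to 0.295 with the total at the 10th percentile, 0.00922 with no thinning, 0.097 and 0.235 in 2 other draws, 0.108 with the score without its 10 most abundant members and 0.182 with positive cells at 2 or more UMIs; it ran from -1.035 without mouse 2 to 0.774 without mouse 3. In each of these settings HFD mouse 2 lay above 0 (0.566 to 1.23) and HFD mouse 3 below (-1.609 to -0.141). In shallower and deeper cells of HFD mouse 2 (divided at 2697 UMIs), chosen after seeing the data, the held-out ratio was 1.10 (0.184 to 4.83), from 3 and 7 UMIs, and 1.78 (1.20 to 2.63). Of 392 refits of the 24 genes given with fitted values, 27 changed sign. Most of these 24 were picked for having the same sign in both mice. Over all 70 tested genes that the rule names, 170 of 1207 refits changed sign. With 1 mouse left out, 31 of 140 did, against 1 of 48 for the 24 genes. With the total at the 10th percentile the log2 fold change was -0.14 for Dad1, -0.75 for Pgrmc1, -0.80 for Gchfr, 0.92 for Hsd17b12, 0.19 for Glrx5, 0.10 for Iigp1, 3.41 for Rab2a, 0.31 for Hmgn1, 3.96 for C1rl and 1.34 for Ppa1. With it at the median, it was -0.58 for Dad1, 0.39 for Iigp1 and 0.18 for C1rl, and with no thinning -0.0206 for Dad1. In other draws it was -0.0449 for Mgll, -0.0198 and -0.17 for Cml1, -0.0815 for Pgrmc1, -0.0517 for Gchfr, 0.012 for Dnajb11, 0.17 for Rab2a, 0.16 for Hmgn1, 0.0618 for C1rl, 0.53 for Ppa1, and 0.0653 and 0.0599 for Adtrp. With positive cells at 2 or more UMIs it was 0.80 for Ppa1. With 1 mouse left out, Cyp4a10 was at -0.18 in HFD mouse 3 alone and at 1.07 in HFD mouse 2 alone. The cause of these changes was not tested. Of 513 list medians, 116 moved by more than the spread between the 2 mice. The pericentral median was above 0 in 18 of 19 settings (-0.11 in limma-trend) and -0.46 in HFD mouse 3 alone.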
